A study of Sus scrofa with 12 samples.

Results

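The 10 genes described here encode the abundant chaperones and folding enzymes of the endoplasmic reticulum: HSPA5, HSP90B1, CALR, CANX, PDIA3, PDIA4, PDIA6, P4HB, HYOU1 and DNAJB11. They were taken by symbol from the deposited table of merged m6A peaks and by the same gene identifier from the deposited table of gene expression. All 10 were found, among 11422 genes with a peak and 20889 genes in the expression table. Together they held 25 of 25055 distinct peaks, and 24 of the 25 had a count. The exception was the P4HB peak, which spans 132855 bp, is listed under P4HB and 13 neighbouring genes, and has 0 reads in each of the 12 libraries, so P4HB is described by its expression values alone.

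Proteins that enter the secretory pathway fold in the lumen of the endoplasmic reticulum. HSPA5 (BiP), an Hsp70, binds unfolded chains with the help of the J-protein DNAJB11 and of HYOU1, which exchanges its nucleotide, while HSP90B1 (GRP94), the Hsp90 of this compartment, acts on a narrower set of clients. The lectins calnexin (CANX) and calreticulin (CALR) hold glycoproteins for PDIA3, and the disulfide isomerases PDIA4, PDIA6 and P4HB form and rearrange disulfide bonds. Many of these genes are transcribed more when unfolded protein builds up, and intestinal epithelium, with its large output of membrane and secreted protein, depends on them.

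IPEC-J2, a line of porcine intestinal epithelial cells labelled wild type, was grown in medium with serum and antibiotics. Control cells (CON) received 0 µM and treated cells (OAA) 25 µM of a compound that the labels name OAA, for 24 h, in a series whose title names 2-oxindole-3-acetic acid (spelled there with "aceic"). MeRIP-seq maps N6-methyladenosine (m6A), a modified base within mRNA, by sequencing RNA fragments that an antibody to m6A holds back next to fragments that were not selected. Each treatment had 3 numbered replicates with a library labelled input and a library labelled IP, which gave 4 groups of 3. All 12 libraries carry the same batch label, and nothing says that the cultures were grown apart, so the spread that p-values measure is that between these samples and may be technical.

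The sample titles and the library codes disagree on which libraries are the antibody part, and groups are named here by the titles. FPKM (fragments scaled to transcript length and library size) exist for 6 libraries, with the codes of those labelled IP. The peak ratio divides labelled input by labelled IP on the log2 scale, as the authors' deposited table does; if the titles are right, antibody enrichment has the opposite sign. Reads in peaks came to 16.5 to 23.0 M in libraries labelled input and to 3.71 to 4.61 M in libraries labelled IP. The chaperone peaks took 0.415% to 0.472% of the former and 0.647% to 0.741% of the latter. Of the epithelial markers EPCAM, CDH1, KRT8, KRT18 and VIL1, 4 of 5 exceeded 1 FPKM, KRT8 at a mean of 396 FPKM and VIL1, a brush-border protein, at 0.246. A mean of 1 FPKM was reached by 1 of 3 enterocyte markers in the table (SI, sucrase-isomaltase, at 12.8), 1 of 4 goblet cell markers (FCGBP at 2.98, with MUC2 and TFF3 listed at 0), 3 of 3 endothelial markers (CDH5, the highest, at 3.78), 1 of 4 leukocyte markers (CD79A at 6.22, with PTPRC listed at 0) and 0 of 4 fibroblast markers.

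Most of the chaperones were among the genes with the highest FPKM. These levels, their order and the differences between treatments below describe unselected RNA if the library codes are right, and RNA bound by the antibody if the titles are right. By mean FPKM over the 6 libraries the order was P4HB at 463 ± 24.5, CALR at 444 ± 19.7, PDIA3 at 413 ± 6.79, HSPA5 at 294 ± 13.05, HSP90B1 at 240.1 ± 18.2, PDIA4 at 226 ± 8.92, CANX at 215 ± 9.93, PDIA6 at 178 ± 5.82, HYOU1 at 93.8 ± 4.13 and DNAJB11 at 19.2 ± 1.19 (SD, n = 6). Ranges overlapped between P4HB and CALR, between HSP90B1 and PDIA4, and between PDIA4 and CANX, and every other neighbour in this order was separated in all 6 libraries. P4HB ranked 134 and PDIA6 ranked 312 among all genes, while DNAJB11, the cofactor of HSPA5, ranked 3583. The 10 genes summed to 0.539% to 0.549% of all FPKM in CON and to 0.549% to 0.569% in OAA.

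**Figure D1:**
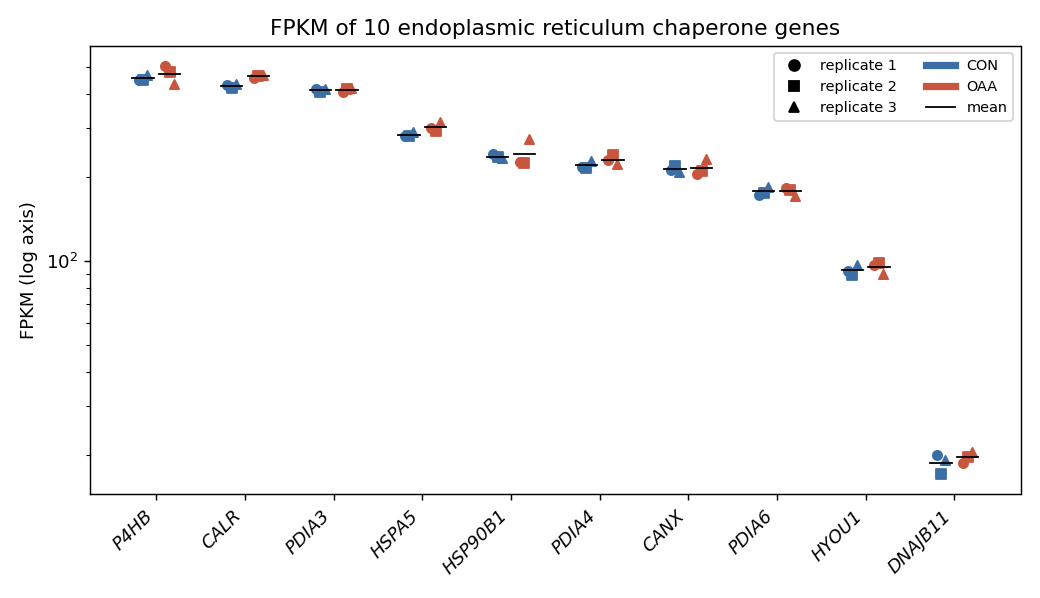
FPKM of the 10 chaperone genes on a log axis, 1 point per library (CON blue, OAA red, marker shape the replicate number), with a bar at the mean of each group of 3. P4HB, CALR and PDIA3 are the highest, DNAJB11 is the lowest at a mean of 19.2 FPKM, and the treatments lie close together for every gene.

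Differences between OAA and CON in FPKM were small for every chaperone, and none was called. On the log2(FPKM + 1) scale the differences ran from 0.00 for PDIA6 to 0.11 for CALR, with all 10 above 0 and a median of 0.04. Over all 10763 genes tested, 43.0% lay above 0, the median was -0.01, and limma called 0% (0 genes, with 356 at an unadjusted p under 0.05, Benjamini-Hochberg threshold 0.05). The 95% intervals of the chaperones reached at most from -0.14 to 0.22. The fold of OAA over CON therefore had estimates between 1.00 and 1.08. In RNA from whole cultures, a change in the number of expressing cells and a change in RNA per cell cannot be told apart.

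HSPA5, the Hsp70 of the compartment, had 281, 282 and 292 FPKM in CON and 299.9, 294 and 316 FPKM in OAA. All 3 OAA libraries lay above all 3 CON libraries. The group means were 285 ± 6.12 and 303 ± 11.4 FPKM (SD, n = 3), a log2 difference of 0.09 ± 0.04 (SE, 95% interval -0.01 to 0.19, limma adjusted p = 1.00). Its nucleotide exchange factor HYOU1 had 92.3, 88.9 and 96.9 FPKM in CON and 96.8, 98.6 and 89.6 FPKM in OAA, with groups that overlapped (0.03 ± 0.06). DNAJB11 had 19.99, 17.1 and 19.2 FPKM in CON against 18.7, 19.7 and 20.5 FPKM in OAA, again with overlap (0.06 ± 0.07). Neither cofactor separated the treatments.

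CALR, the soluble lectin chaperone, was the other gene whose groups did not overlap. Its values were 428, 421 and 432 FPKM in CON and 454, 465 and 466 FPKM in OAA. The means were 427 ± 5.50 and 462 ± 6.35 FPKM (SD, n = 3), a difference of 0.11 ± 0.04 (SE, 95% interval 0.03 to 0.20), with an unadjusted p of 0.0133 and an adjusted p of 1.00 by limma. Groups with every OAA library above every CON library were thus found for 2 of 10 chaperones, against 3.28% of all genes tested, and groups with every OAA library below CON for 0 of 10, against 5.27%. CANX, the membrane-bound lectin, had 213, 219 and 209 FPKM in CON and 206, 210.4 and 233 FPKM in OAA. PDIA3, the isomerase that both lectins recruit, had 416, 404 and 414 FPKM in CON and 405, 416 and 421 FPKM in OAA. The groups of both overlapped, and their differences were 0.02 ± 0.05 and 0.01 ± 0.04.

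HSP90B1 had 242, 237 and 235 FPKM in CON and 227, 225 and 275 FPKM in OAA. OAA library 3 alone lay above CON, while OAA libraries 1 and 2 lay below it, so the mean difference of 0.02 ± 0.07 averages opposite values. PDIA4 had 218, 217 and 228 FPKM in CON and 231, 241 and 223 FPKM in OAA (0.07 ± 0.05). PDIA6 had 173, 176 and 185 FPKM in CON and 184, 180.0 and 171 FPKM in OAA (0.00 ± 0.05). P4HB, also the beta subunit of collagen prolyl hydroxylase, had 447, 449.9 and 465 FPKM in CON and 502, 479.7 and 435 FPKM in OAA (0.05 ± 0.05). In each of these 3 isomerases 1 or more OAA libraries fell within or below the CON range.

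**Figure D2:**
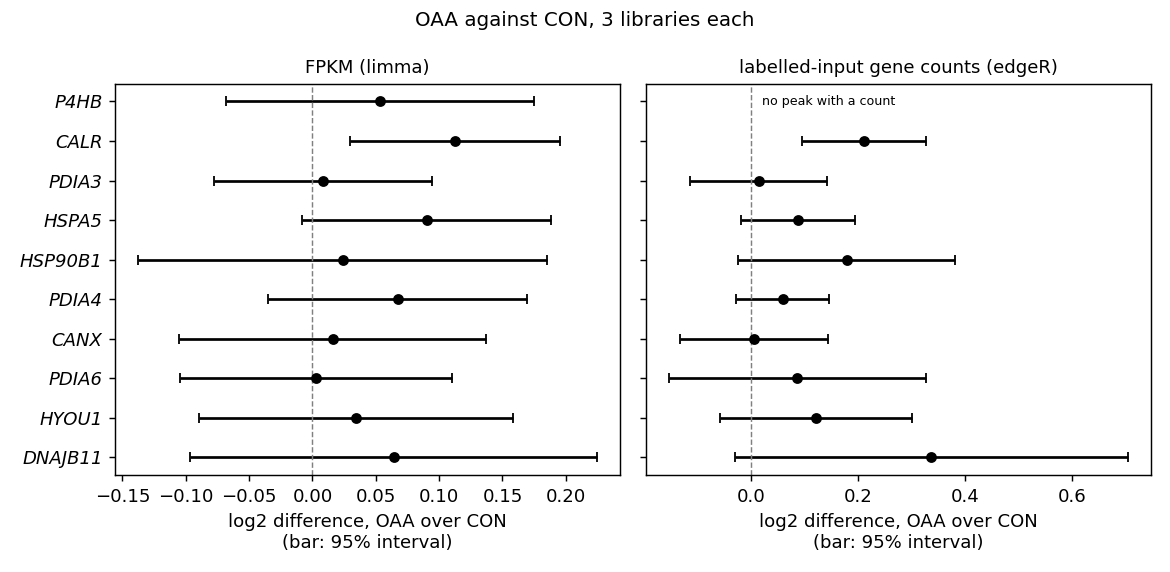
Log2 difference of OAA over CON for each chaperone, from FPKM (left, limma) and from labelled-input reads summed per gene (right, edgeR), with 95% intervals and 3 libraries per treatment. The interval of CALR lies above 0 in both panels, and those of the other genes include 0.

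OAA library 3 differed from the other OAA libraries in which chaperones were high. Set against the CON mean, HSP90B1 lay at log2 -0.06, -0.08 and 0.21 in OAA libraries 1, 2 and 3, and CANX at -0.05, -0.02 and 0.13. P4HB lay at 0.14, 0.08 and -0.06, HYOU1 at 0.06, 0.09 and -0.05, and PDIA6 at 0.05, 0.02 and -0.06. HSP90B1 and CANX were thus high in library 3, where P4HB, HYOU1 and PDIA6 were low. Over the 6 libraries HSP90B1 and CANX varied together (r = 0.925) and CANX against P4HB (r = -0.828), as descriptions in which library 3 carries much of the spread. Without OAA library 3 the genes above 0 fell to 7 of 10, no chaperone was called (lowest adjusted p = 0.145, limma), and 1763 genes had an unadjusted p under 0.05.

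The libraries labelled input gave a comparison of OAA with CON from reads in peaks, summed over the peaks of a gene that are listed under that gene alone. These reads describe RNA bound by the antibody if the library codes are right, and unselected RNA if the titles are right. They are thus not the same measure as FPKM under either labelling. Here 9 chaperones could be tested, all 9 lay above 0 with a median of 0.09, and none was called. Of all 9298 genes tested, 48.8% lay above 0, the median was -0.00, and edgeR called 0% (0 genes, with 453 at an unadjusted p under 0.05 and 1 called by DESeq2). Values are CPM, reads scaled to a library's total in peaks. CALR had 426, 416 and 460.5 CPM in CON and 518, 489 and 505 in OAA. The means were 434 ± 23.5 and 504 ± 14.3 (SD, n = 3), a log2 difference of 0.21 ± 0.05 (SE, 95% interval 0.10 to 0.33), with an unadjusted p of 0.00133 and an adjusted p of 0.929 by edgeR. Every OAA library again lay above every CON library.

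The same held for 3 further chaperones, so 4 of 9 had groups that did not overlap with OAA higher, against 5.92% of all genes. HSPA5 had 1192, 1317 and 1346 CPM in CON and 1356, 1349 and 1407 in OAA (0.09 ± 0.05). PDIA4 had 1666, 1701 and 1706 in CON and 1718, 1766 and 1817 in OAA (0.06 ± 0.04). DNAJB11, with far fewer reads, had 8.96, 8.00 and 11.0 in CON and 11.5, 11.2 and 12.9 in OAA (0.34 ± 0.17). The gaps between the groups of HSPA5 and DNAJB11 were narrow beside the spread within CON, and the 95% intervals of all 3 included 0.

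The remaining 5 had overlapping groups. HSP90B1 lay at 0.18 ± 0.10, a value of its start codon peak alone, which held 25.6% of its labelled-input reads; with peaks listed under several genes included it lay at 0.08. The others were HYOU1 at 0.12 ± 0.08, PDIA6 at 0.09 ± 0.11, PDIA3 at 0.01 ± 0.06 and CANX at 0.01 ± 0.07. Again OAA library 3 stood highest, with all 9 genes above the CON mean at a median of 0.22, against 7 of 9 at 0.08 in library 1 and 6 of 9 at 0.06 in library 2. Without it, 7 of 9 lay above 0. CALR lay above the CON mean in each OAA library, at 0.26, 0.17 and 0.22.

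**Figure D3:**
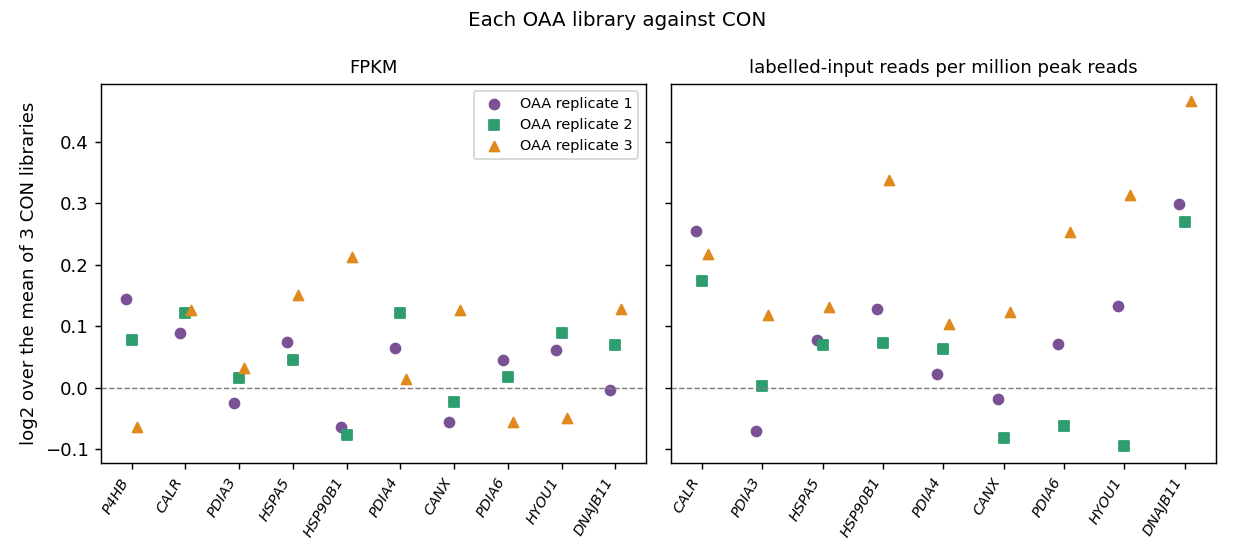
Log2 of each OAA library over the mean of 3 CON libraries, for FPKM (left, 10 genes) and for labelled-input CPM (right, 9 genes). OAA replicate 3 (triangles) lies apart for HSP90B1 and CANX in both panels and is above 0 for all 9 genes on the right.

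The peaks of the chaperones lay mostly at the ends of the coding sequence. By the deposited annotation 8 of 25 covered a start codon and 8 of 25 a stop codon, the wide P4HB peak among both, against 20.8% and 24.2% of all peaks. The largest stop codon peaks held most of the reads: HSPA5 has a single peak (chromosome 1, 265930045 to 265930869, coding end and 3' UTR), and that of CALR (chromosome 2, 66098650 to 66098999) held 92.9% of the labelled-input reads of its gene and 97.1% of the labelled-IP reads. In HSP90B1 the stop codon peak (chromosome 5, 80512332 to 80512993) held 74.4% and 85.1%, and in PDIA3 (chromosome 1, 127786020 to 127786144) 63.6% and 72.4%. PDIA4 had a pair, at the stop codon (chromosome 9, 109279213 to 109279637) with 67.9% of the labelled-input reads and in the 3' UTR (chromosome 9, 109279888 to 109280249) with 32.0%. The genome build of these positions is not given in the sources used here.

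CANX had a 3' UTR and stop codon peak of 3465 bp (chromosome 2, 78881231 to 78884695) with 79.7% of its labelled-input reads, and HYOU1 a 3' UTR peak (chromosome 9, 46265404 to 46265778) with 68.8%. DNAJB11 was the exception, with only a start codon peak of 3390 bp (chromosome 13, 124390995 to 124394384). PDIA6 had a start codon peak and 4 peaks in the 3' UTR, the first of these (chromosome 3, 125774675 to 125774924) with 47.9% of its labelled-input reads. The other 3 peaks of PDIA6 are listed under ATP6V1C2 too, and the HSP90B1 stop codon peak under C12orf73, so their reads cannot be given to 1 gene.

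In CON most chaperone peaks had a lower ratio of labelled input to labelled IP than the typical peak. The median over 24 peaks was -1.002, against 0.03 over all 24145 peaks tested. In the authors' deposited table the chaperone ratios in CON run from 1.76 for CANX peak 2 to 5.03 for CALR peak 1. The median there over all peaks is 3.97. A value under 0 here thus places a peak below the typical peak, and does not mean a negative ratio in that table. EdgeR called 20 of 24 at an adjusted p under 0.05, where 68.1% of all peaks were called. Of the chaperone peaks 16 were called lower and 4 higher, where 34.2% of all peaks were called lower and 33.9% higher. Peaks of other genes with high FPKM were similarly low: counting peaks under 1 gene, the 919 peaks of other genes with at least 100 FPKM had a median of -1.01 with 69.1% called lower. The 16 chaperone peaks of that kind had a median of -1.03 with 11 called lower (68.8%), so nothing particular to chaperones can be read from the share.

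The lowest ratio was that of a CANX peak. This stop codon peak of 50 bp (chromosome 2, 78886768 to 78886817) had 23.1, 20.1 and 23.1 CPM in the CON libraries labelled input and 107, 138 and 110.3 under the label IP. The ratio was -2.12 ± 0.11 (SE, edgeR adjusted p = 3.37e-17), at percentile 1.35 of all peaks. The stop codon peak of HSP90B1 had 144, 143 and 140.5 CPM under the label input and 594, 539 and 538 under the label IP, for a ratio of -1.67 ± 0.10. The main peaks of PDIA3 at -1.58 ± 0.07, CANX at -1.51 ± 0.08, HYOU1 at -1.41 ± 0.09, CALR at -1.05 ± 0.06, PDIA6 at -1.01 ± 0.12 and DNAJB11 at -0.57 ± 0.19 followed. All lay below the typical peak.

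PDIA4 and HSPA5 lay on the other side. The PDIA4 stop codon peak had 1167, 1143 and 1162 CPM in the CON libraries labelled input and 893, 885 and 909 under the label IP, a ratio of 0.67 ± 0.05 (edgeR adjusted p = 1.34e-12). Its 3' UTR peak stood at 0.76 ± 0.07. The groups of libraries did not overlap at either peak. HSPA5 had 1192, 1317 and 1346 CPM under the label input and 1469, 1406 and 1407 under the label IP, and its ratio of 0.15 ± 0.06 passed in CON (edgeR adjusted p = 0.0300). With scaling by library size alone the median of all peaks moved from 0.03 to -0.28. The calls over all peaks moved from 8181 higher and 8250 lower to 6516 and 10068, and HSPA5 moved to -0.15 (edgeR adjusted p = 0.0298). The sign of its ratio thus depends on the scaling, while HSPA5 lay above the median of all peaks under both scalings.

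**Figure D4:**
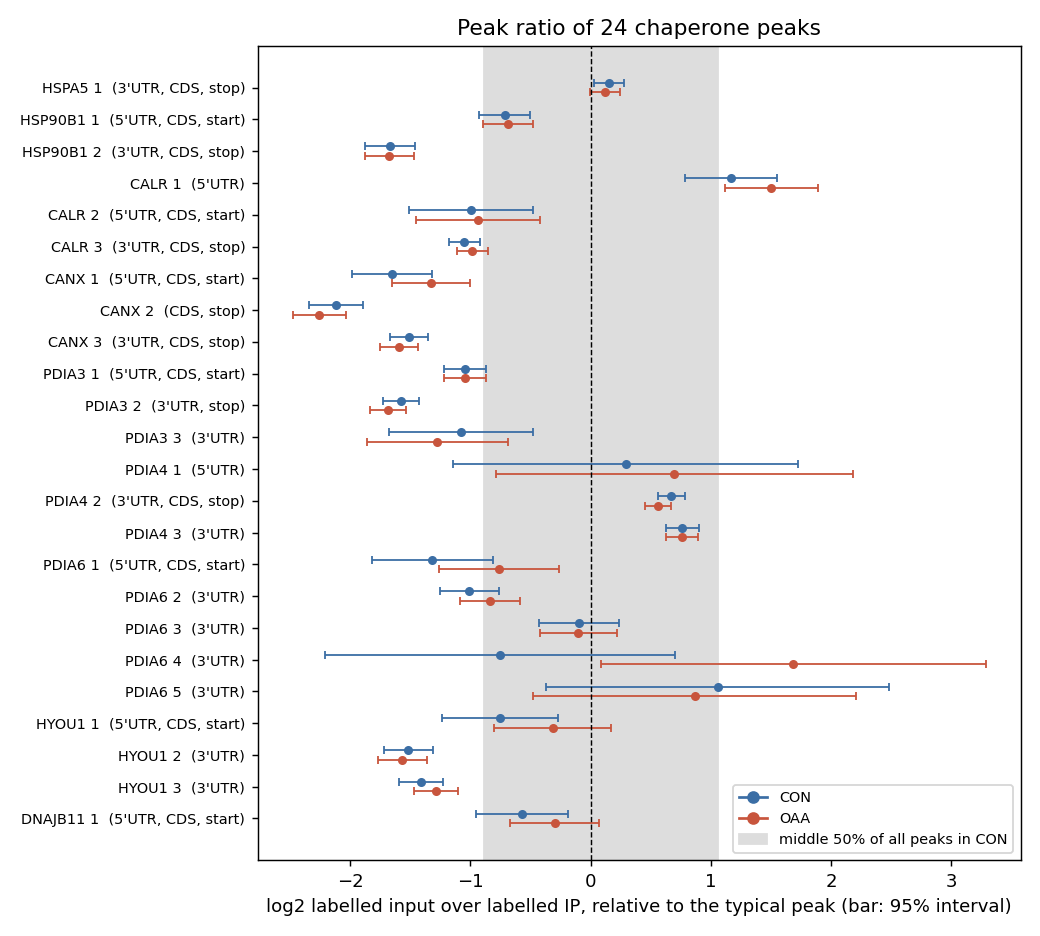
Peak ratio of 24 chaperone peaks in CON (blue) and OAA (red), as log2 of labelled input over labelled IP relative to the typical peak, with 95% intervals and the annotated region in parentheses. Grey marks the middle 50% of all peaks in CON. In CON most chaperone peaks lie at or below its lower edge. Only PDIA4 peaks 2 and 3 and CALR peak 1 have intervals wholly above 0 in both treatments.

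Between genes, the order of these main peaks was compared without any scaling, as log2 of the reads of a peak over those of the next peak in the same library, with 6 labelled-input against 6 labelled-IP libraries, CON and OAA together. These 8 comparisons of neighbours were chosen after the counts were seen, and the exact permutation test (two-sided) can give no p under 0.00216. The order was itself that of the ratios in CON, whose libraries the test includes, so its p-values cannot support the order. In OAA alone, which did not set the order, the differences ran from 0.00 for PDIA3 over HSP90B1 to 0.55 for DNAJB11 over PDIA6. The test also took the libraries of the 2 labels as unpaired. PDIA4 stood above HSPA5 by 0.48, HSPA5 above DNAJB11 by 0.58 and DNAJB11 above PDIA6 by 0.49 (exact permutation, adjusted p = 0.0115 for each). CALR stood above HYOU1 by 0.34 and HYOU1 above CANX by 0.20 (exact permutation, adjusted p = 0.0130 and 0.0346). PDIA6 and CALR, CANX and PDIA3, and PDIA3 and HSP90B1 differed by 0.09, 0.08 and 0.05, which did not pass (exact permutation, adjusted p = 0.428, 0.0693 and 0.511).

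Within a gene, peaks near the start and near the end could differ in ratio. CALR showed the widest difference: its first peak (chromosome 2, 66101853 to 66102077, 5' UTR) had 29.7, 21.8 and 21.5 CPM in the CON libraries labelled input and 14.9, 12.3 and 12.9 under the label IP. Its stop codon peak had 385, 389 and 430.2 against 1060, 1002 and 1014. The first peak was thus higher in the libraries labelled input, and the last was higher in those labelled IP. Their ratios in CON were 1.17 ± 0.19 and -1.05 ± 0.06, and the start codon peak between them (chromosome 2, 66101578 to 66101627) lay at -0.995 ± 0.25.

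The comparison of a gene's first peak with its largest later peak listed was repeated for the 7 genes that have both, with the reads of both peaks taken from the same library. Over 6 libraries of each label the first peak of CALR had a ratio of labelled input to labelled IP that was 5.13-fold that of the last (log2 2.36, 2.19 in CON and 2.52 in OAA). HSP90B1 differed by 0.97, HYOU1 by 0.83 and PDIA3 by 0.58, and in these 4 genes the libraries of the 2 labels did not overlap (exact permutation, p = 0.00216, the smallest possible, adjusted p = 0.00379 over 7 tests). The test took the libraries of the 2 labels as unpaired and pooled CON and OAA. If both libraries of a number come from the same culture, as the protocol has it, they are not independent and these p-values may be too small. CANX, PDIA4 and PDIA6 differed by 0.06, -0.05 and -0.10 (exact permutation, adjusted p = 0.745, 0.896 and 0.745). The first peak of PDIA4 held only 16 labelled-IP reads in CON and 13 in OAA, so a difference there was not detectable at this depth. Over all peaks in CON, those at a start codon had a median ratio of -0.14 and those at a stop codon 0.31, the opposite order to that within HSP90B1 and PDIA3.

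**Figure D5:**
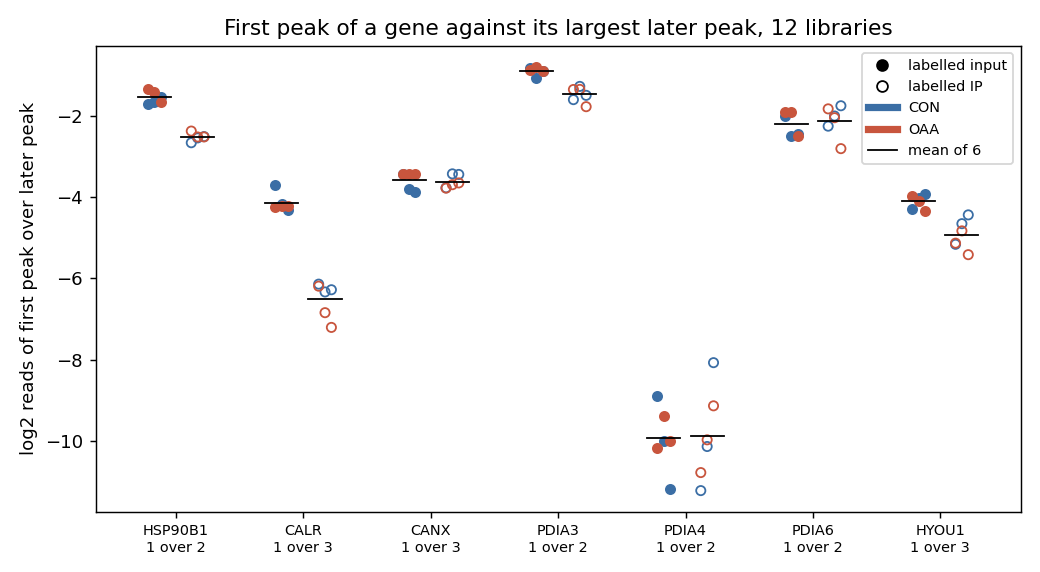
Log2 of the reads of a gene's first peak over those of its largest later peak in each of 12 libraries (filled, labelled input; open, labelled IP; blue, CON; red, OAA), with a bar at the mean of 6. For CALR, HSP90B1, HYOU1 and PDIA3 every labelled-input library lies above every labelled-IP library; PDIA4 is widely spread because its first peak has few reads.

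In OAA the peak ratios were much as in CON. EdgeR called 17 of 24, against 68.5% of all peaks: 14 lower and 3 higher, where 34.4% of all peaks were called lower and 34.1% higher. The HSPA5 peak at 0.12 ± 0.06, the DNAJB11 peak at -0.30 ± 0.18 and the first peak of HYOU1 at -0.31 ± 0.24 were called in CON and missed the threshold in OAA (edgeR adjusted p = 0.0898, 0.147 and 0.246). The change of the ratio itself was called for none of them. Of all 24145 peaks edgeR called 0% for that change (0 peaks, with 1076 at an unadjusted p under 0.05 and 1 called by DESeq2). Among the chaperones 13 of 24 lay above 0, with a median of 0.02.

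For the well-covered peaks the change of the ratio was bounded closely: HSPA5 at -0.03 (95% interval -0.21 to 0.14), CALR peak 3 at 0.07 (-0.11 to 0.25), PDIA4 peak 2 at -0.11 (-0.27 to 0.04), PDIA3 peak 2 at -0.11 (-0.32 to 0.10) and HSP90B1 peak 2 at -0.01 (-0.29 to 0.28). The start codon peaks of PDIA6, HYOU1, CANX and DNAJB11 lay at 0.55 ± 0.34, 0.44 ± 0.33, 0.32 ± 0.22 and 0.27 ± 0.26, that of CALR at 0.06 ± 0.36, and the better covered ones of HSP90B1 and PDIA3 at 0.03 ± 0.15 and 0.00 ± 0.12. None of the 7 was called. The widest estimate was at PDIA6 peak 4 (2.44 ± 1.07), which rests on 34 labelled-input and 14 labelled-IP reads in CON and on 73 and 6 in OAA, with an unadjusted p of 0.0297 and an adjusted p of 0.999 by edgeR. In the authors' deposited table the change at this peak is 2.46 and its adjusted p, like that of every chaperone peak with a value, is 1.00.

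Peak by peak, reads in OAA against CON were again close. In the libraries labelled input 20 of 24 chaperone peaks lay above 0, against 50.7% of all peaks, and none was called (0% of 24835 peaks by edgeR, with 1292 at an unadjusted p under 0.05 and 2 called by DESeq2). The CALR stop codon peak did not pass but was higher in every OAA library, at 484, 457 and 471 CPM against 385, 389 and 430.2 in CON (0.23 ± 0.06, unadjusted p = 0.00116, edgeR adjusted p = 0.940). In the libraries labelled IP 15 of 21 tested peaks lay above 0, against 49.7% of all peaks, and none was called, while edgeR called 1 of all 20098 peaks (0.00498%); without OAA library 3 it called 50, with 0 of them among the chaperones. The same CALR peak had 1060, 1002 and 1014 CPM in CON and 1069, 1108 and 1201 in OAA (0.15 ± 0.06), and PDIA4 peak 2 had 893, 885 and 909 against 956, 1005 and 969 (0.14 ± 0.06). At both, every OAA library lay above every CON library, with unadjusted p of 0.0197 and 0.0246 and an adjusted p of 0.998 by edgeR. PDIA6 peak 2 went the other way, at 55.9, 60.3 and 59.0 CPM in CON against 51.7, 53.2 and 53.4 in OAA (-0.14 ± 0.11). Every OAA library lay below every CON library there. For neither label was the share of all peaks without overlap computed, so these cases have nothing to be set against.

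The HSP90B1 stop codon peak showed OAA library 3 apart under both labels. It had 126, 128 and 185 CPM in the OAA libraries labelled input, against 144, 143 and 140.5 in CON. Labelled-IP libraries gave 544, 499.6 and 652 in OAA, against 594, 539 and 538 in CON. OAA library 3 lay above every CON library under both labels, as in FPKM. OAA libraries 1 and 2 lay below every CON library under the label input, while under the label IP library 2 lay below all of them and library 1 within their range. The ratio of the peak was -1.67 in both treatments. Whether both libraries of a number come from the same culture rests on the protocol alone.

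Other genes of the same compartment and pathway, in lists chosen with earlier results of these data known, gave no called gene in FPKM or in labelled-input reads. Of 32 other endoplasmic reticulum chaperones and folding factors tested in FPKM, 18 lay above 0 (median 0.02), with TMX4, a membrane thioredoxin, at -0.15 and ERO1B, an oxidase that recharges disulfide isomerases, at 0.18. In labelled-input reads 18 of 28 lay above 0 (median 0.03), with HSPA13 at -0.13. The unfolded protein response list had 8 of 20 identifiers above 0 in FPKM (median -0.01; DDIT3 is listed under more than 1 identifier) and 11 of 17 genes in labelled-input reads (median 0.03). Its stress transcription factors ATF4 and DDIT3 stood at 32.9 ± 1.15 and 10.00 ± 1.04 FPKM in CON and at 35.0 ± 0.502 and 11.4 ± 0.891 in OAA (SD, n = 3), log2 differences of 0.09 and 0.17 that did not pass (limma adjusted p = 1.00). In labelled-input reads the genes of smallest p in this list were CHAC1 at 0.17, SESN2 at -0.29 and TRIB3 at 0.14. Each was without overlap between its groups, and none passed (edgeR adjusted p = 0.929). Genes picked for a small p tend to have such groups, so this says nothing about the list. Over all genes 5.92% had such groups with OAA higher in labelled-input reads, and the share with OAA lower was not computed.

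Genes of endoplasmic reticulum degradation had 9 of 24 above 0 in FPKM (median -0.03) and 12 of 21 in labelled-input reads (median 0.01). HERPUD1, which organises the degradation complex, lay at 0.16 ± 0.05 and the ubiquitin-conjugating enzyme UBE2J2 at -0.12 ± 0.05 in FPKM (SE, limma adjusted p = 1.00 for both), each without overlap between its groups. HERPUD2 lay at -0.14 ± 0.06 in FPKM and at -0.08 ± 0.05 in labelled-input reads, without overlap in either measure. HERPUD1, UBE2J2 and HERPUD2 were likewise picked for a small p, so their lack of overlap says nothing about the list. Over all genes in FPKM, 3.28% had such groups with OAA higher and 5.27% with OAA lower. Translocon and N-glycosylation genes had 15 of 27 above 0 in FPKM (median 0.03) and 14 of 23 in labelled-input reads (median 0.03), with PRKCSH, the beta subunit of glucosidase II that trims glycans for the calnexin cycle, at 0.22 ± 0.09 in the latter (edgeR adjusted p = 0.929). Cytosolic chaperones had 18 of 26 above 0 (median 0.02) and 13 of 23 (median 0.00), and mitochondrial chaperones 6 of 9 (median 0.03) and 7 of 9 (median 0.05), in the same order. All 9 or 10 members tested of the chaperone group described here lay above 0 in both measures, by medians of 0.04 and 0.09, and no test compared them with these lists.

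Peak ratios of these lists in CON, over peaks under 1 gene, spanned the range of the chaperones. Translocon and N-glycosylation genes had 33 of 42 peaks called lower and 3 higher (median -1.07), close to the 15 lower and 4 higher of 20 such chaperone peaks (median -1.03). Other chaperones and folding factors of the endoplasmic reticulum had 22 of 47 lower and 14 higher (median -0.36), degradation genes 24 of 47 and 14 (median -0.42), cytosolic chaperones 24 of 48 and 9 (median -0.44), and mitochondrial chaperones 7 of 15 and 3 (median -0.59). The unfolded protein response list stood highest, with 10 of 37 lower and 14 higher (median 0.15). By edgeR the share called lower over all peaks was 34.2%, as given above.

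Among 5381 genes with at least 10 FPKM in every library, the FPKM pattern most like the mean of the standardised chaperone values was that of NIPSNAP3A (r = 0.976 over 6 libraries), followed by IYD, an iodotyrosine deiodinase (0.956), INSIG1, the sterol-regulated retention factor of the endoplasmic reticulum membrane (0.943), NCAPG2, a condensin subunit (0.942), and TMEM97 (0.935). The next were EYA3, TCTN1, CCNH, LTA4H and PFDN2, at 0.913 to 0.934. These genes were picked for their likeness over 6 values each, and the chaperone mean itself ran from -0.81 in CON library 2 to 0.50 in OAA library 3 in units of SD. CON library 3 lay at 0.09 and OAA library 1 at 0.15, so the gap between the treatments was smaller than the spread within CON.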

How the data were processed

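Per the labels' protocols, RNA of IPEC-J2 cells was fragmented and split into an input and an m6A antibody part. Bowtie2 and HISAT2 were used, per the submitters' processing notes; no source used here gives their versions, their roles or the genome build. Per the file headers, the authors' peak table holds raw counts per library, log2 ratios, p-values and their −log10 (not used), and the deposited gene table holds FPKM. No column of single libraries lacked a sample (0). Peaks listed under several genes were used once; starts count from 0 in the file and from 1 here.

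Counts were tested with edgeR 4.0.16 (quasi-likelihood, TMM, filterByExpr) in R 4.3.3, which sets the typical peak to 0; log2(FPKM + 1) of genes with at least 1 FPKM in 3 libraries with limma 3.58.1 (trend). P-values were adjusted over all features (Benjamini-Hochberg, threshold 0.05). Scripts were tested on simulated data. Alternatives were DESeq2 1.42.0, limma-voom, other scalings and filters, pseudocounts 0.1 and 5, omission of each library, and a replicate block. Exact permutation tests over 6 and 6 libraries (0.5 reads added) took the libraries as unpaired and were chosen after the counts were seen. The members and lists were chosen with earlier results of these data known. All members and their peaks are named, with up to 3 genes of smallest p per list and measure, of which a part is printed, and the 10 genes most like the members.

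Replicate numbers showed little pairing of libraries. Deviations from group means correlated at -0.0139 to 0.0563 for same-numbered libraries of the 2 labels, against -0.0374 to 0.0272 for other numbers. For CON and OAA libraries the values were -0.0588 to -0.00131 for the same number and -0.0277 to 0.052 for other numbers. Such low correlations cannot exclude that both libraries of a number come from the same culture.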

Additional observations from a re-analysis of the deposited data

How the results depend on the processing

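No chaperone was called between OAA and CON, or for the change of the ratio, under any alternative run. Over all features, FPKM gave 1 gene without a minimum and 0 otherwise. Labelled-input genes gave 1 by DESeq2 and 0 to 1 with a library left out (1 without OAA labelled-input library 1). Labelled-input peaks gave 2 by DESeq2 and 0 to 1 with a library left out. Labelled-IP peaks gave 1 in the reported fit, 0 with library size alone, 3 by limma-voom, 4 with only features without a count left out, and 0 to 50 with a library left out, 50 without OAA labelled-IP library 3. The change of the ratio gave 1 by DESeq2 and 0 to 1 with a library left out.

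The replicate block, although the numbers showed little pairing, gave 1 labelled-input peak, 4 labelled-IP peaks and 1 change of the ratio.

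With library size alone HSPA5 changed sign, to -0.15 in CON and -0.16 in OAA, where the medians of all peaks were -0.28 and -0.24. In CON, HSPA5 (0.13 without labelled-IP library 2 or 3), HYOU1 peak 1 (-0.58 without labelled-IP library 3) and DNAJB11 (-0.46 and -0.40 without labelled-input library 1 or 2) also missed the threshold. In OAA, PDIA6 peak 1 missed it without labelled-IP library 1 (-0.58) or labelled-input library 3 (-0.60). HSPA5 in OAA passed the threshold with the same sign in 11 of 18 alternatives, and with the opposite sign in 1, library size alone. DNAJB11, HYOU1 peak 1, PDIA6 peak 3 and PDIA6 peak 4 passed it in 1 each. The sign changed in 8 of 110 FPKM values, 4 of 117 labelled-input gene values, 33 of 288 labelled-input peak values (11 of 24 peaks), 11 of 252 labelled-IP peak values (9 of 21 peaks) and 43 of 419 changes of the ratio, none of them called. Depth limits some ratios: PDIA4 peak 1 and PDIA6 peaks 4 and 5 had 6 to 16 labelled-IP reads per treatment.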
